A study of Mus musculus with 8 samples.

Results

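Imprinted growth genes are genes of which the cell uses mainly the copy from one parent and whose products set the size of the fetus or placenta. The genes described here are 10 such genes besides Igf2. They are the 6 paternally expressed genes Mest, Dlk1, Peg3, Peg10, Plagl1 and Ndn and the 4 maternally expressed genes Cdkn1c, Phlda2, Grb10 and Meg3. They were chosen by symbol, and every probe annotated to one of the symbols was taken. This gave 13 of the 25697 probes on the array, for 9 of the 10 genes, while no annotated probe gave a value for Meg3. RNA from kidneys of Mus musculus was hybridised to single-colour bead arrays, 1 array a sample, in 4 kidney tumors of Lin28 transgenic mice and in 4 normal kidneys that served as controls. Tumor 1 and control 1 came from animals of 5 weeks, and tumors 2 to 4 and controls 2 to 4 from animals of 4 months. The sources used here do not give the promoter that drives the transgene, the genotype of the controls, or the sex and strain of the animals. The arrays measure the sum of both parental copies, so the words paternal and maternal below are textbook background and were not measured.

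Imprinting is laid down as DNA methylation on CpG dinucleotides in the germ line of 1 parent and silences or opens nearby genes on that copy. Paternally expressed genes often promote the growth of the fetus, and maternally expressed genes often restrain it. In the mouse many of these genes are active together in the fetus and are turned down in the kidney and other organs as postnatal growth slows. Lin28 is an RNA-binding protein of embryonic cells that blocks let-7 microRNAs.

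For 8 of the 10 genes a promoter is held in the RefSeq table of build GRCm38.p6. The 4 stretches below belong to the gene with the largest rise (Mest, with both of its main starts, because the probes do not show which start was used), to the only member that fell (Phlda2) and to a maternally expressed member that rose (Grb10). Each runs 5′ to 3′ on the gene's strand over the 250 bases before the start, and capitals mark CpG dinucleotides. Whether imprinting methylates the CpG shown here was not examined.

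Mest, upstream start, chr6:30733256-30733505, plus strand: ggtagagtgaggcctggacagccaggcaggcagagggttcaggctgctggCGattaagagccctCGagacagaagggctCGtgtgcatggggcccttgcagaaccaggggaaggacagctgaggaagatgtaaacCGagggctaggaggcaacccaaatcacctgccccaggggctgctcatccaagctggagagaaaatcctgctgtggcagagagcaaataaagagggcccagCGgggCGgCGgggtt

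Mest, downstream start, chr6:30737800-30738049, plus strand: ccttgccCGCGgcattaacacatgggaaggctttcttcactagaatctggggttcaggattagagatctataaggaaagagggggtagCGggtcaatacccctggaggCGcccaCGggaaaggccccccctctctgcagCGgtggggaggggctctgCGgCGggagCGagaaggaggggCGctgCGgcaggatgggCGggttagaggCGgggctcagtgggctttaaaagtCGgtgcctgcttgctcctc

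Phlda2, chr7:143502525-143502774, minus strand: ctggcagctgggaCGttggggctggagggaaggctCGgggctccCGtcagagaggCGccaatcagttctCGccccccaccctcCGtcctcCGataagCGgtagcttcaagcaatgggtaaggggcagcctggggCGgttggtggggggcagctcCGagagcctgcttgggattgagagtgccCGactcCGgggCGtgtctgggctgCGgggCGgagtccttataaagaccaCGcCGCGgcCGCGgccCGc

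Grb10, upstream start, chr11:12037421-12037670, minus strand: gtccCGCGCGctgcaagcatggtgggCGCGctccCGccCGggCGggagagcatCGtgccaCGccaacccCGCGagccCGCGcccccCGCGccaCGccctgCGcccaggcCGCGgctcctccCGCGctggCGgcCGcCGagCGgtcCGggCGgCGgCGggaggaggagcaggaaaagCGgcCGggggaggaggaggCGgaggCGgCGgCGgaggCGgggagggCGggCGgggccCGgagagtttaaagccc

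The downstream Mest stretch holds 14 CpG and the upstream one 7, against a median of 6 over 32851 mouse promoter stretches of the same length. The Phlda2 stretch holds 21 CpG, a number that 16.3% of all stretches reach. The Grb10 stretch is the densest of the members, with 40 CpG, reached by 1.31% of all stretches. The Ndn stretch, by comparison, holds 5 CpG. The letters TATAAA, searched on both strands, were found in the Phlda2 stretch and in 1 of the 2 Meg3 stretches, and in 12.4% of all stretches. Methylation was not measured.

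Values are deposited probe intensities on a linear scale, with background subtracted and each array scaled to the same mean. The background limit of an array, 3 times the noise seen in its values below 0, was 27.6 on tumor 1, 11.1 to 14.2 on tumors 2 to 4 and 10.7 to 16.5 on the controls. Tests used limma on log2(intensity + 16) over the 15418 probes bright enough to be tested, with Benjamini-Hochberg adjustment over all of them and a threshold of 0.05. The labels call the samples biological replicates, and 4 arrays a group limit the precision. Over all tested probes the median change was 0.33 log2 units higher in tumors, and 72.9% of the called changes were rises. With quantile normalization that median was 0.01 and 53.3% of the called changes were rises. The members did not move by one common amount between scalings. With quantile normalization the first Mest probe changed by 5.79, Cdkn1c by 2.98, Grb10 by 3.31 and Phlda2 by -3.20, and with median scaling they changed by 5.57, 2.32, 2.71 and -3.35 log2 units. Levels of different probes are not compared, because probes differ in brightness. The array of tumor 1 stood apart. Pearson correlations over the tested probes, on the log2 scale, were 0.930 to 0.967 among tumors 2 to 4 and 0.929 to 0.989 among controls. The array of tumor 1 correlated at 0.846 to 0.874 with the other tumors and at 0.841 to 0.879 with the controls. Without it the changes were 6.11 for the first Mest probe, 1.98 for Dlk1 (adjusted p = 0.0501), 2.91 for Peg3, 3.31 for Ndn, 2.88 for Cdkn1c, 3.28 for Grb10 and -3.39 for Phlda2 on the log2 scale, and no call of a member gene changed.

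Of the 10 genes, 5 rose in the tumors (Mest, Peg3, Ndn, Cdkn1c and Grb10), 1 fell (Phlda2), 1 was tested and did not pass (Dlk1), 2 were too dim to be tested (Peg10 and Plagl1) and 1 was not analysed here (Meg3). Among the tested genes, 3 of 4 paternally expressed ones rose, while of the 3 maternally expressed ones 2 rose and 1 fell. Over all tested probes 31.0% rose and 11.5% fell. All 4 tumors lay above all 4 controls for 6 of the 7 tested genes and below them for the other. Of all tested probes, 29.4% and 9.48% did so. For Dlk1, counted among the 6, tumors 1 and 2 were under background, as were all controls. The filter bears on these counts, since Dlk1, Peg3 and 1 probe of Mest passed it only through the tumors, their controls alone lying under it.

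**Figure D1:**
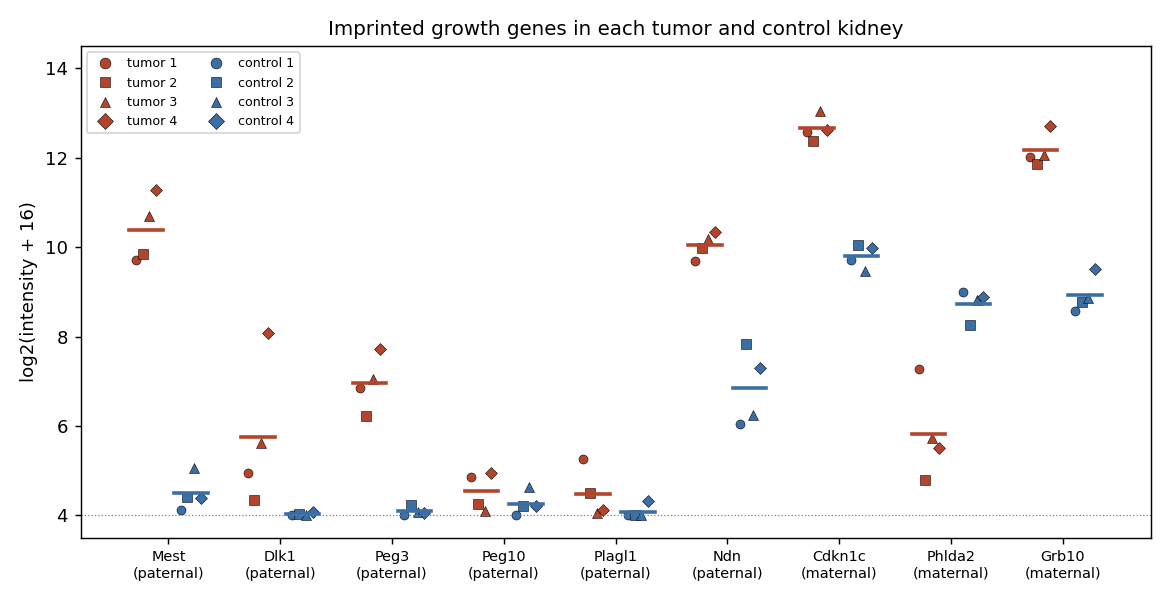
Log2(intensity + 16) of the 9 measured genes (vertical axis) in each of the 4 tumors (red) and 4 control kidneys (blue), with a gene standing by its brightest probe. Symbols mark the sample number, bars the group means and the dotted line the floor of 4. Tumors and controls are separate for Mest, Dlk1, Peg3, Ndn, Cdkn1c and Grb10 (tumors above) and for Phlda2 (tumors below). For Dlk1, tumors 1 and 2 and all controls are under background. Heights of different genes cannot be compared.

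Mest encodes an enzyme-like protein of the alpha/beta-hydrolase family, made in fetal mesoderm, and its loss from the paternal copy slows growth in the mouse. Its brightest probe read 819, 903, 1638 and 2457 in tumors 1 to 4, against 1.30, 5.30, 17.3 and 4.90 in controls 1 to 4. All tumors were high, and 3 of the 4 controls were under background, with control 3 just above it. The fitted rise was 5.89 ± 0.37 log2 units (SE; limma adjusted p = 4.16e-05). Because the controls are at background, the size depends on the value added, and it was 7.07 with 4 added and 4.29 with 64 added.

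The second probe of Mest read 344, 375, 859 and 1179 in tumors 1 to 4, against 2.70, 2.80, 14.2 and 2.10 in controls 1 to 4. It gave the same order of the tumors as the first, and rose by 4.89 ± 0.40 log2 units (adjusted p = 1.13e-04). The third probe read -51.9, 657, 1652 and 2167 in tumors 1 to 4, against 1.10, 5.00, 19.5 and 7.40 in controls 1 to 4. On tumor 1 it was thus below every control, although both other probes were bright there. Its rise of 4.25 ± 1.35 log2 units passed (adjusted p = 0.0321), and without tumor 1 it was 5.85 (adjusted p = 4.23e-05), close to the first probe. Leaving out any 1 of the other 7 arrays ended the call of the third probe, with changes of 3.49 to 4.45 and adjusted p-values of 0.0592 to 0.0867. On the array of tumor 1, 63 probes read below 0 although they exceeded 500 in each of tumors 2 to 4. On the arrays of tumors 2, 3 and 4 the count of such probes was 0.

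**Figure D2:**
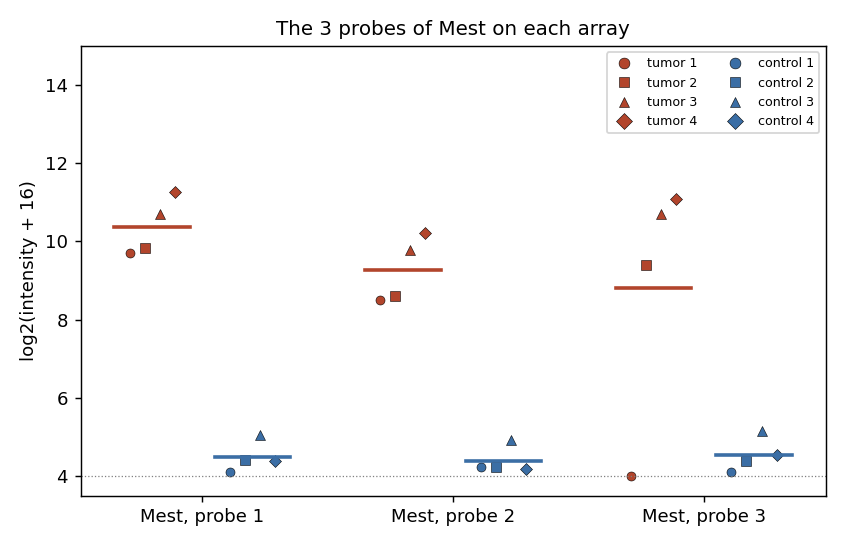
Log2(intensity + 16) (vertical axis) of the 3 Mest probes, ordered by mean level, in the 4 tumors (red) and 4 control kidneys (blue). Bars are group means and the dotted line is the floor of 4. On the third probe tumor 1 sits at the floor, with an intensity of -51.9, while tumors 2 to 4 read 657 to 2167.

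Dlk1 encodes a transmembrane protein with EGF-like repeats, related to the ligands of Notch, that holds back the maturation of fat cells. Its intensity was 15.1, 4.2, 33.3 and 253 in tumors 1 to 4, against -2.50, 0.30, -1.60 and 1.00 in controls 1 to 4. All controls and tumors 1 and 2 were under background, and the level of tumor 4 stood far above that of the other tumors. The groups did not overlap, and the difference did not pass (change 1.72 ± 0.68 log2 units, adjusted p = 0.0695). It passed without tumor 2 (2.19, adjusted p = 0.0313), and also without tumor 4, at a smaller size (0.94, adjusted p = 0.0426). For the genes below, a fold written as at least sets the tumors against the background limits of the control arrays.

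Peg3 encodes a large zinc finger protein of stem and progenitor cells. It read 98.5, 58.7, 116 and 195 in tumors 1 to 4, against -1.5, 2.90, 0.80 and 0.60 in controls 1 to 4. Every tumor was above background and every control under it. The rise was at least 8.49-fold (fitted change 2.87 ± 0.29 log2 units, adjusted p = 2.82e-04).

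Ndn encodes necdin, a protein of the MAGE family that restrains division of neurons. It read 814, 991, 1152 and 1284 in tumors 1 to 4, against 49.6, 213, 60.3 and 142 in controls 1 to 4. Unlike Mest, Dlk1 and Peg3, it was above background in all controls, which spread more (SD 0.86 log2 units, n = 4) than the tumors (SD 0.28 log2 units, n = 4). Tumors averaged 1060.0 ± 203 and controls 116 ± 76.6 (SD, n = 4 each), a rise of 3.19 ± 0.39 log2 units (adjusted p = 6.36e-04).

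Peg10, a gene derived from a retrotransposon and needed for the placenta, read 13.0, 3.00, 1.10 and 15.1 in tumors 1 to 4, against -4.30, 2.60, 8.70 and 2.60 in controls 1 to 4. Only tumor 4 exceeded its background limit. Plagl1 encodes a zinc finger factor that regulates other imprinted genes, and its 3 probes spanned -6.80 to 22.3 in tumors, with controls at -7.00 to 3.90. All 8 arrays were under background for each of the 3 probes. With no filter on dim probes, Peg10 differed by 0.28 ± 0.24 log2 units (adjusted p = 0.502), and the 3 Plagl1 probes by 0.03 to 0.40 (adjusted p = 0.375 to 0.856).

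Cdkn1c encodes an inhibitor of cyclin-dependent kinases that stops the cell cycle, and in people its loss causes overgrowth. It was bright on all arrays, with 6122, 5258, 8474 and 6317 in tumors 1 to 4, against 826, 1051, 696 and 989.9 in controls 1 to 4. Even the lowest tumor was far above the highest control. Tumors averaged 6543 ± 1367 and controls 891 ± 161 (SD, n = 4 each), a rise of 2.85 ± 0.22 log2 units or 7.21-fold (adjusted p = 8.06e-05).

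Grb10 encodes an adaptor protein that binds the insulin and insulin-like growth factor receptors and dampens their signal. It read 4146, 3720.1, 4264 and 6654 in tumors 1 to 4, against 365, 423, 448 and 714 in controls 1 to 4. Sample 4 was highest in both groups, and the groups were widely apart. Tumors averaged 4696 ± 1326 and controls 488 ± 155 (SD, n = 4 each), a rise of 3.23 ± 0.27 log2 units or 9.41-fold (adjusted p = 1.13e-04). In most mouse tissues Grb10 is expressed from the maternal copy, and in neurons from the paternal one, and the probe does not separate them.

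Phlda2 encodes a small protein with a pleckstrin homology domain that restrains growth of the placenta. It read 138, 11.9, 37.2 and 29.8 in tumors 1 to 4, against 492, 288, 435 and 459 in controls 1 to 4. Tumor 1 was the highest tumor, tumor 2 was under background, and all tumors were below all controls. Tumors averaged 54.3 ± 57.0 and controls 418 ± 89.8 (SD, n = 4 each), and the level fell by 2.91 log2 units (SE 0.47, adjusted p = 0.00201). Of all tested probes, 98.6% had a change above that of Phlda2. In RNA from whole tissue, fewer cells of a type and less RNA per cell cannot be told apart. Markers of the proximal tubule moved the same way as Phlda2, with 6 of 6 tested genes lower, where 11.5% of all tested probes fell. Their summed intensity was 23224 in tumor 1 and 705 to 2080 in the other tumors, and 28820 to 45342 in controls. Distal tubule and loop of Henle markers also moved this way, with 4 of 5 tested genes lower. Their summed intensity was 32085 in tumor 1 and 1031 to 6059 in the other tumors, and 37128.5 to 63206 in controls. The part of the tubule markers in the fall of Phlda2 was not tested. Without tumor 1 Phlda2 fell by 3.39 log2 units (adjusted p = 8.07e-05).

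**Figure D3:**
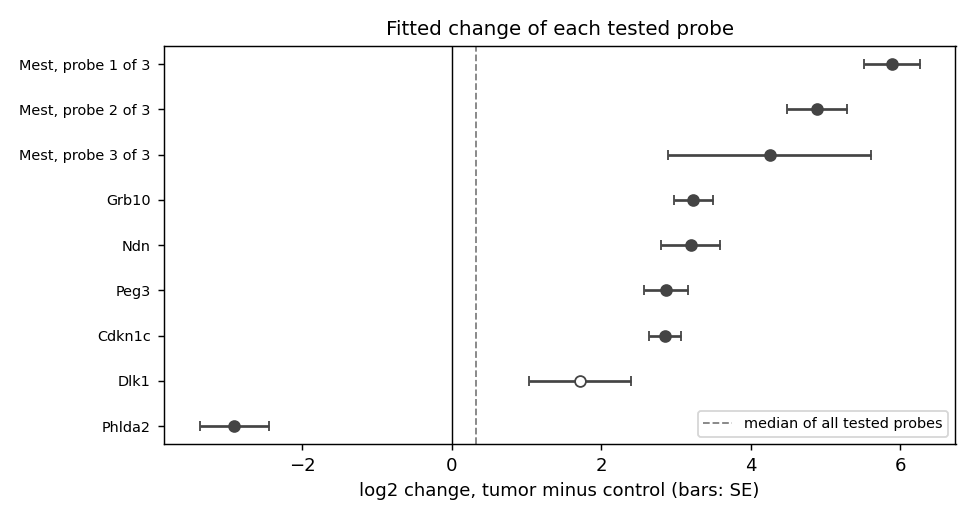
Fitted log2 change, tumor minus control (horizontal axis), of the 9 tested probes of 7 genes, with bars for the SE. Filled points passed the threshold and the open point (Dlk1) did not. The dashed line marks the median of all tested probes at 0.33. Phlda2 alone lies left of 0.

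The 4 tumors were not alike in these genes. Tumor 4 was the highest tumor for Mest, Dlk1, Peg3, Ndn and Grb10, and tumor 3 for Cdkn1c. Tumor 2 was the lowest tumor for Peg3, Cdkn1c, Grb10 and Phlda2, and tumor 1 for Mest and Ndn, while tumors 1 and 2 could not be ranked for Dlk1. The spread among tumors was widest for Dlk1 (SD 1.64 log2 units, n = 4) and Phlda2 (SD 1.04), apart from the third Mest probe, and was 0.28 to 0.29 for Ndn and Cdkn1c. Markers of nephron progenitors, the embryonic cells that form the nephrons, were higher in tumors for 6 of 6 tested genes. Over all tested probes 31.0% rose. Of these markers Six2, Cited1, Eya1, Osr1 and Gdnf passed the filter only through the tumors. The summed intensity of the 6 markers was 1159.5, 674, 1414 and 2334 in tumors 1 to 4, while controls summed to 58.7 to 115. Peg3 and Grb10 stood in the same order across the tumors as this sum, while Mest, Ndn, Cdkn1c and Phlda2 did not. Markers of stroma were also higher for 6 of 6 tested genes, with sums of 9054, 22442, 12141 and 9142 in tumors 1 to 4, while the controls summed to 1252 to 3640.4. Among leukocyte markers Lyz2, a gene of myeloid cells, read 9841 in tumor 2 and 1295 to 2254 in the other tumors, and 193 to 1088 in controls (rise of 3.04 ± 0.73 log2 units, adjusted p = 0.0104). It made up most of that list's sum. The T cell gene Cd3e differed by -0.16 (adjusted p = 0.721), and Ptprc and Ms4a1 were under background on all arrays. Adipoq, a fat cell gene, read 1647 in tumor 2 and at most 17.8 in the other tumors, against -1.20 to 180.0 in controls, while the other 3 measured fat cell genes were under background on all arrays. The part of these cell types in the changes of the imprinted genes was not tested. Without tumors 1 and 2, a comparison added after the data were seen, the changes were 6.49 for the first Mest probe, 2.82 for Dlk1 (adjusted p = 0.00788), 3.29 for Peg3, 3.41 for Ndn, 3.03 for Cdkn1c, 3.45 for Grb10 and -3.11 for Phlda2. Dlk1 was under background in exactly the tumors left out here, so its larger change follows from that choice and is no separate support. Adrenal cortex, which lies on the kidney and makes several of these RNAs, had 4 of 6 marker genes (Star, Cyp11b1, Cyp21a1 and Nr5a1) under background on all arrays. Mc2r exceeded background in 3 tumors and rose by 0.81 ± 0.17 log2 units (adjusted p = 0.00556). Cyp11a1 exceeded it in 1 tumor and differed by 0.29 ± 0.20 (adjusted p = 0.269). Both passed the filter only through the tumors. The list summed to 21.5 to 67.3 in tumors and 4.40 to 21.1 in controls.

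Control 2 stood apart from the other controls for Igf2, the paternally expressed growth factor, which read 5097, 3814, 7559.8 and 13398 in tumors 1 to 4, against 67.9, 6283, 222.5 and 78.4 in controls 1 to 4. The same kidney had the highest Ndn (213) and Cdkn1c (1051) of the controls, though control 4 was close for Cdkn1c (989.9). Its Phlda2 (288) was the lowest of the controls, and its Grb10 (423) lay between those of other controls. Its Mest (5.30), Dlk1 (0.30) and Peg3 (2.90) were under background. Without control 2 the changes of Ndn and Cdkn1c were 3.52 and 2.93 log2 units, and both stayed called.

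Age was compared because 1 pair came from younger animals. Between tumor 1 and control 1, at 5 weeks, the differences were 5.59 for the first Mest probe, 0.96 for Dlk1, 2.84 for Peg3, 3.66 for Ndn, 2.87 for Cdkn1c, 3.45 for Grb10 and -1.72 for Phlda2 on the log2 scale. At 4 months the changes were 5.98, 1.97, 2.88, 3.04, 2.85, 3.16 and -3.30 for these genes in the same order. The tests of age against group did not pass for any of these 7 probes (adjusted p = 0.429 to 0.998). This test rests on 1 pair at 5 weeks. The sources used here name no slide or scan day, so batches could not be examined.

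Imprinted genes lie in clusters, and genes around each member were described next. These neighbours were listed by name, and the list does not hold every gene near a member. Distances were taken from the GRCm38.p6 annotation, in which Zfp264 was not found. Of 32 listed neighbours 25 had a probe and 14 were tested, of which 8 rose and 2 fell. Over all tested probes 31.0% rose and 11.5% fell. The median change of the neighbours was 0.64 log2 units, against 0.35 over all tested named genes. At the Cdkn1c and Phlda2 cluster on chromosome 7, genes differed in direction. Slc22a18, a transporter gene next to Phlda2 and also maternally expressed in some tissues, read 3243, 152, 91.0 and 62.6 in tumors 1 to 4, against 7874.5, 5464, 7664 and 4595 in controls 1 to 4. Like Phlda2 it was highest in tumor 1 among the tumors, and it fell by 4.59 log2 units (SE 1.03, adjusted p = 0.00794). Without tumor 1 it fell by 5.80 log2 units (adjusted p = 1.48e-05). Its difference was -1.28 between tumor 1 and control 1, at 5 weeks, and -5.69 at 4 months. With 1 pair at 5 weeks, age and the array of tumor 1 cannot be told apart here. Nap1l4, a histone chaperone on the other side of Phlda2, rose by 0.90 ± 0.21 log2 units (adjusted p = 0.00879). Kcnq1, a potassium channel gene, differed by 0.11 ± 0.34 (adjusted p = 0.810).

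Near Mest, with 1 gene between them, Cep41, a gene of the cilium, rose by 1.92 ± 0.32 log2 units (adjusted p = 0.00229). Near Ndn, the imprinted gene Mkrn3 rose by 1.43 ± 0.33 (adjusted p = 0.00890), while Magel2 and Peg12 of the same cluster were too dim to be tested. Near Peg10, Ppp1r9a, which encodes an actin-binding protein, rose by 1.96 ± 0.38 (adjusted p = 0.00424), while Sgce, directly beside Peg10, was too dim. On the side of Dlk1, 558 kb away with 3 genes between, the tRNA synthetase gene Wars rose by 0.91 ± 0.20 (adjusted p = 0.00696) on its brightest probe. Its other tested probes differed by 0.79 (adjusted p = 0.0186), 0.42 (adjusted p = 0.356) and 0.40 (adjusted p = 0.301). The transporter gene Slc25a29, 617 kb from Dlk1, differed by 0.12 ± 0.24 (adjusted p = 0.720). Near Plagl1, Ltv1, of ribosome assembly, rose by 0.73 ± 0.19 (adjusted p = 0.0152) and Sf3b5, a splicing factor gene, by 0.54 ± 0.17 (adjusted p = 0.0296). Near Grb10, the recombination gene Fignl1 was at least 30.9-fold higher (adjusted p = 1.75e-05), and the actin nucleator gene Cobl fell by 0.81 log2 units (SE 0.21, adjusted p = 0.0156). Fignl1, counted among the neighbours that rose, passed the filter only through the tumors, its controls alone lying under it. Also near Grb10, Ddc, an enzyme of amine synthesis, differed by -2.06 ± 0.78 (adjusted p = 0.0604) and Ikzf1, a lymphocyte factor, by 0.52 ± 0.25 (adjusted p = 0.118). Usp29 and Zim1, the measured neighbours of Peg3, were too dim to be tested. Median scaling called 4 neighbours higher and 3 lower, and the calls of Sf3b5 (0.02), Ltv1 (0.25), Wars (0.40) and Nap1l4 (0.37) were lost. With cyclic loess those of Ltv1 (0.26) and Mkrn3 (0.84) were lost. Ltv1 also lost its call with quantile normalization and with normexp and quantile normalization, and both Ltv1 and Sf3b5 lost theirs at 4 months alone. The call of Sf3b5 was also lost without tumor 3, tumor 4, control 1, control 3 or control 4 (change 0.48 to 0.57, adjusted p = 0.0556 to 0.0936).

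**Figure D4:**
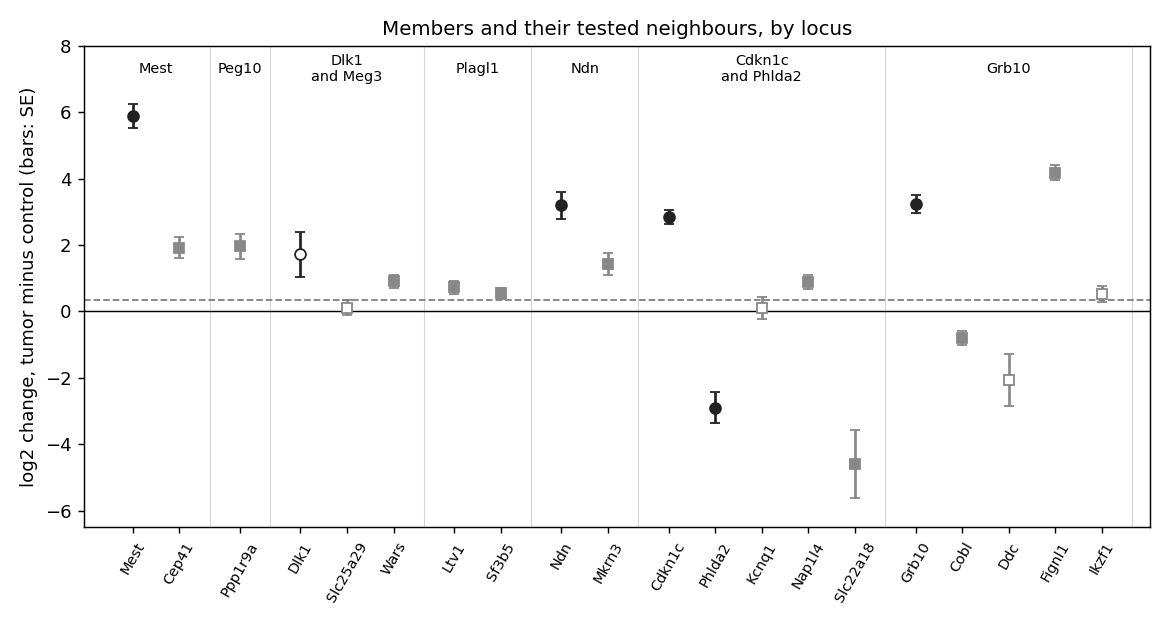
Fitted log2 change, tumor minus control (vertical axis), of members (black circles) and their tested neighbours (grey squares), grouped by locus, with bars for the SE. Filled symbols passed the threshold, and the dashed line is the median of all tested probes at 0.33. At the Cdkn1c and Phlda2 cluster the members and neighbours lie on both sides of 0.

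Of 45 other imprinted genes listed, 33 had a probe and 17 were tested. Of the 17, 8 rose, 3 fell and 6 did not pass, where 31.0% of all tested probes rose and 11.5% fell. Mkrn3, Nap1l4, Ppp1r9a, Slc22a18 and Kcnq1 were also counted among the tested neighbours above, so these counts and those of the neighbours overlap. The 17 genes had a median change of 0.54 log2 units, against 0.35 over all tested named genes. Median scaling called 4 of them higher and 5 lower, and 4 rose without tumor 3, control 1 or control 3 and 5 without tumor 4 or control 4. Igf2 rose by 4.34 ± 1.24 log2 units (adjusted p = 0.0210), with groups that overlap because control 2 lay above tumors 1 and 2. Without control 2 its rise was 5.76 (adjusted p = 3.36e-04), and without tumor 3, tumor 4, control 1, control 3 or control 4 its call was lost (change 3.68 to 4.28, adjusted p = 0.0511 to 0.0611). The call of Igf2 was also lost with no filter and among the samples of 4 months alone. Among the paternally expressed genes the next largest rise was that of Nnat, a gene of the endoplasmic reticulum, which was at least 7.45-fold higher (adjusted p = 0.00144). Nnat read 45.9, 63.5, 174 and 154 in tumors 1 to 4, against 9.70, 2.10, 2.90 and 1.00 in controls 1 to 4. It too passed the filter only through the tumors, which bears on the count of rises. Among the maternally expressed genes Slc22a18 had the largest fall, followed by Slc22a2, a cation transporter gene of the proximal tubule, which fell by 3.42 log2 units (SE 0.78, adjusted p = 0.00861). Snrpn, a splicing protein gene of the region that also holds Ndn, was the only called fall among the paternally expressed genes. It fell by 1.11 log2 units (SE 0.29, adjusted p = 0.0149). Its values were 211, 184, 252 and 267 in tumors 1 to 4, against 647, 289, 725 and 477 in controls 1 to 4, and its call was lost among the samples of 4 months alone (-0.96, adjusted p = 0.0599). H19 was not analysed here.

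Relatives of the members outside imprinted loci were listed as well. Of 12 such genes 8 were tested, of which 5 rose and 1 fell, where 31.0% and 11.5% of all tested probes did so, and 3 rose without tumor 3, control 1 or control 3 or with median scaling. Their median change was 1.42 log2 units, against 0.35 over all tested named genes. Maged2, of the same protein family as Ndn, rose by 2.66 ± 0.33 log2 units (adjusted p = 6.19e-04) and Plagl2, the relative of Plagl1, by 2.36 ± 0.34 (adjusted p = 0.00134). Grb7, the relative of Grb10, fell by 0.88 log2 units (SE 0.20, adjusted p = 0.00870).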

How the data were processed

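RNA of 8 kidney samples was measured on 8 bead arrays. The deposited series values are intensities with background subtracted and each array scaled by the authors to a mean of 273.8, per the values themselves, by software that the sources used here do not name. Another 16 columns of signals before normalization were not used, because their names match no sample. Negative values were replaced by 0, and log2 was taken after adding 16. The 10279 probes under the 40th percentile of mean log2 value were removed. All other probes were tested two-sided by limma's lmFit and eBayes (version 3.58.1, R 4.3.3) without a covariate. A gene with several probes stands by the brightest. Symbols came from the platform annotation, in which 23978 probes have 1 symbol and 1719 have none. An "at least" fold uses log2 intensities with nothing added. The fit was tested on simulated data. All members were named, all tested neighbours, and from each of the other lists at most the 2 largest called rises and falls, paternally and maternally expressed genes being separate lists. Zfp64 was listed as maternally expressed without a check of its expressed copy. Members and lists were chosen with earlier results of these data known. The alternatives covered scaling, background, value added, filter, probe summary, variance model, age, replicate block and left-out arrays.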

Additional observations from a re-analysis of the deposited data

Results flagged for a closer look

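The third Mest probe gave a tumor change at 5 weeks that was apart from that at 4 months (interaction -5.80 ± 0.90 log2 units, SE, limma adjusted p = 0.0281). With 1 tumor and 1 control at 5 weeks this rests on the reading of -51.9 on the array of tumor 1, and age and that array cannot be told apart. For the first and the second probe the same interaction was -0.39 (adjusted p = 0.946) and -0.83 (adjusted p = 0.870). On the array of tumor 1, 72 of 25697 probes read as low as that or lower. The 63 probes that were below 0 on tumor 1 and above 500 on each of tumors 2 to 4 had a median of -49.2 and a minimum of -56.1 there, and 62 of them were above background on control 1. For 12 of the 63 the gene had another probe that exceeded 500 on each of tumors 2 to 4, and for all 12 that other probe was above background on tumor 1. The cause was not tested.

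Control 3 stood apart on the second Mest probe, with an intensity of 14.2 against 2.10 to 2.80 in the other controls, and it was also the highest control on the first (17.3) and the third probe (19.5). Of 18 groups of 4 values examined for a sample apart from the rest, 1 was found, where chance gives about 1 in 20.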

How the results depend on the processing

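The count of 5 members higher and 1 lower among 7 tested held under the 23 other settings run (9 genes tested with no filter), except where Dlk1 passed too and made 6 higher. Those were the settings with 4 added (3.02 log2 units, adjusted p = 0.0274), with array weights (1.90, 0.00704), without tumor 2, without tumor 4 and without tumors 1 and 2. Dlk1 was under background in tumors 1 and 2, so leaving these out raises its tumor mean by construction. Across the settings the first Mest probe changed by 4.29 to 7.07, Peg3 by 1.28 to 4.49, Ndn by 2.58 to 3.68, Cdkn1c by 2.32 to 3.25, Grb10 by 2.71 to 3.45 and Phlda2 by -3.39 to -2.11 log2 units, all of them called each time. Of 203 probe results, 0 reversed. The third Mest probe lost its call with cyclic loess (3.70, adjusted p = 0.0599), normexp and quantile normalization (3.10, 0.0567), 4 added (4.89, 0.0598) and no filter (4.25, 0.102).

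Counts over all probes (4775 higher, 1775 lower) depended on the scaling. There were 2930 higher and 2563 lower with quantile normalization (53.3% higher), 2548 higher and 3181 lower with median scaling (44.5%), 2659 higher and 2891 lower with cyclic loess (47.9%), and 2851 higher and 2454 lower with normexp and quantile normalization (53.7%). Array weights called 9953 in all, 7185 higher and 2768 lower. Leaving out 1 array gave 3402 to 5274 higher and 1229 to 2178 lower. The interaction with age called 234 probes, and 1967 with no filter. Same-numbered samples deviated from their group means with correlations of 0.211, 0.225, 0.128 and 0.069, and 5 of 8 samples correlated best with their own number, which is a hint from the data and not the design. As 1 of the 4 correlations did not exceed 0.1, the numbers were not taken as pairs. With the replicate block 4918 probes were higher and 1803 lower, and no call of a tested member probe changed. Among the neighbours Sf3b5 lost its call there (0.54, adjusted p = 0.0585). Kcnq1 and Slc25a29, not called, changed sign with quantile normalization (-0.36 and -0.32), median scaling (-0.27 and -0.20), cyclic loess (-0.45 and -0.33), normexp and quantile normalization (-0.22 and -0.15), and Slc25a29 at 4 months alone (-0.11). Leaving out 1 array gave -0.11 to 0.33 for Kcnq1 and -0.012 to 0.29 for Slc25a29. Settings for listed genes other than members were added after the data were seen. For genes at background in the controls (Mest, Dlk1, Peg3) the size of a change is limited by the background.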
